A study of Homo sapiens with 6 samples.

Results

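Open chromatin in the gene-poor stretches of the genome was followed in 6 ATAC-seq libraries of human pluripotent stem cells with and without hairpins against HNRNPU. A summit, the base of strongest signal in a called peak, was counted as gene-poor if at most 2 midpoints of protein-coding genes lay within 500 kb of it and a gene of any kind lay within 50 kb. Of 356720 summits in the 6 lists, 54479 met this rule. Summits of different libraries within 250 bp of each other were joined into 123131 loci, of which 21544 (17.5%) were gene-poor. The rule used only the gene table and no measured value.

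ATAC-seq marks open chromatin by the cuts of a transposase. The cells were H1, an established human embryonic stem cell line that the labels call hPSCs, grown in mTeSR1 on Matrigel. All 6 libraries came from cells given a lentiviral short hairpin RNA and kept under puromycin. There were 2 libraries of shHNRNPU #1 and 2 of shHNRNPU #2, a pair of hairpins against HNRNPU, and 2 of shLUC, a control hairpin. No statement ties the repeats to separate cultures, so the p-values measure only the spread between these libraries. A library pools many cells, so fewer cells with an open locus and less opening in each cell cannot be told apart.

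HNRNPU, also called SAF-A, is an abundant nuclear protein that binds RNA and DNA and is counted among the proteins of the nuclear matrix. Gene-poor stretches, often called gene deserts, hold few genes, many of them very long neuronal and adhesion genes, together with lncRNA genes and distant enhancers of developmental regulators. Much of this chromatin is kept compact and lies at the nuclear lamina, and open loci are sparser there than around clustered genes.

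The files hold no read counts, so depth is unknown and the knockdown was not measured by them. The lists held 52168 to 63519 summits, and the shHNRNPU and shLUC lists overlapped in size. The labelled cell type was checked at gene ends. Of 12 pluripotency markers, 11 had a summit near an end of the gene, within 2000 bp, in all 6 libraries, and LIN28B had none in any. Of 13 markers of other lineages 10 also had one in all 6, so open gene ends did not separate cell types here. PTPRC, the leukocyte marker, had no such summit in any library.

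Promoters in gene-poor windows are shown first, because they are the loci whose sequence can be read next to a gene. RefSeq gives 4090 promoters of protein-coding and lncRNA genes in these windows on GRCh38.p14, out of 35116 in all. The 250 bases before the start are printed 5′ to 3′ on the strand of the gene. Capitals mark 4 short motifs searched on both strands, namely the CCAAT box (CCAAT), the GC box (GGGCGG), the TATA box (TATAAA) and the octamer bound by POU factors (ATGCAAAT), with overlapping matches run together. The first 4 are promoters of this table with a summit in all 6 libraries, 1 for each gene, taken for a high lowest percentile of score. ARRDC4, an arrestin-domain gene, has its upstream bases at chr15:97960453-97960702 on the + strand. TXNL1, a thioredoxin-like gene, has them at chr18:56638593-56638842 on the - strand. LRIG1, an inhibitor of ErbB receptors, has them at chr3:66501122-66501371 on the - strand. TLE4, a corepressor of the Groucho family, has them at chr9:79571715-79571964 on the + strand.
ARRDC4: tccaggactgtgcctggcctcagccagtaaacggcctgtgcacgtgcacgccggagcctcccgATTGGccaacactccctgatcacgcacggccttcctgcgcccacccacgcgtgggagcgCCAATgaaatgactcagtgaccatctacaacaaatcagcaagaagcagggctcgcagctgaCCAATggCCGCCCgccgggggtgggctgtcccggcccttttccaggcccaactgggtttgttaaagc
TXNL1: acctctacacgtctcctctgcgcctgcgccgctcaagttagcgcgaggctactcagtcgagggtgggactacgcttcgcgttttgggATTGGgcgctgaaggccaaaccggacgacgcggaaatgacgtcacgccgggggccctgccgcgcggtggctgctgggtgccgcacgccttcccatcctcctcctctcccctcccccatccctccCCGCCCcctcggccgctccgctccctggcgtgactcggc
LRIG1: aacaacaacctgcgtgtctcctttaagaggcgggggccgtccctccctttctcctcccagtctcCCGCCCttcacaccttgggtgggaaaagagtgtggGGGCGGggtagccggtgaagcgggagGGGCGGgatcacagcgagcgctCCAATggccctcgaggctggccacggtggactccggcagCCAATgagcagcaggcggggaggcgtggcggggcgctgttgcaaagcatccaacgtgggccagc
TLE4: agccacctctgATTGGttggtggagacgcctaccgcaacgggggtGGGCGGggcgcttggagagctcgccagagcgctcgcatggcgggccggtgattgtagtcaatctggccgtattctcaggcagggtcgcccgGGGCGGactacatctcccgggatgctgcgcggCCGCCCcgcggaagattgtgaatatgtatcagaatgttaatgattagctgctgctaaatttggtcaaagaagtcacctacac

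The next promoters differed between the groups in having a summit or none. Gained means a summit in all 4 shHNRNPU libraries and in neither shLUC library, and lost means a summit in both shLUC libraries and in none of the 4 others. The promoters of TSHZ3, a zinc finger and homeobox factor (chr19:31349437-31349686, - strand), and IRX1, an Iroquois homeobox factor (chr5:3595582-3595831, + strand), had gained loci. Those of KCNN2, a calcium-activated potassium channel (chr5:114361820-114362069, + strand), and the lncRNA gene LOC105370462 (chr14:40318112-40318361, + strand) had lost loci.
TSHZ3: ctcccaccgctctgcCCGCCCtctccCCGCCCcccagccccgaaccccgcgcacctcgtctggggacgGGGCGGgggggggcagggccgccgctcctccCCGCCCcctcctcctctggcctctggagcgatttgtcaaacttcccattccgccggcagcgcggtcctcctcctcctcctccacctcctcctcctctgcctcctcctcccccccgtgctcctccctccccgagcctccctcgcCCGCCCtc
IRX1: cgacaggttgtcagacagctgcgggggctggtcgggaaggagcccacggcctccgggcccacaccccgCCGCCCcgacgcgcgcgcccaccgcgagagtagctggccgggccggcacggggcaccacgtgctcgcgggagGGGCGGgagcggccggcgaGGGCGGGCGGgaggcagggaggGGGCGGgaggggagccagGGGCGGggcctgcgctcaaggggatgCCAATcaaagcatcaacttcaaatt
KCNN2: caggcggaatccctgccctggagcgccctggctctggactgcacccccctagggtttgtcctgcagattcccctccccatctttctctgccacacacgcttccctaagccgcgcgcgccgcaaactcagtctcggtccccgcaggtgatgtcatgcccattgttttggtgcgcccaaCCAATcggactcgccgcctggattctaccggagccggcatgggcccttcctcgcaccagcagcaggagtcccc
LOC105370462: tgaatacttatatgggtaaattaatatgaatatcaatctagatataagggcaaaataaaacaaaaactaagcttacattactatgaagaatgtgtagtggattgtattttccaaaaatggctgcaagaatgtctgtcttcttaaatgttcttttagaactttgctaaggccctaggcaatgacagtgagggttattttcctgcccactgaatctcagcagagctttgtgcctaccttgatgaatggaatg

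The 4 promoters open in every library hold between 59.2% and 69.6% G or C in these 250 bases, and each has a CCAAT box and a GC box. Among all 35116 promoters a CCAAT box is found in 32.0% and a GC box in 42.6%. For the CCAAT box the classes of gene-poor promoters lie close together. It is found in 38.1% of those with a summit in all 6 libraries, 28.1% with a summit in 1 to 5 and 34.3% with none. The ARRDC4 locus, 247 bases before the start, scored 88.5 and 89.6 with shHNRNPU #1, 76.6 and 74.1 with shHNRNPU #2, and 111 and 92.4 with shLUC. The score is the -log10 of the q-value of the peak in its own library, and it is not normalized between libraries. The LRIG1 locus, 16 bases before the start, scored 71.7, 99.8, 89.0 and 93.0 in the shHNRNPU libraries and 81.1 and 66.0 in the shLUC libraries, so the groups overlapped. At ARRDC4 the shLUC scores were the highest pair. A match to a motif is a description of these letters and not a bound site.

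The gained locus at TSHZ3 lay at the start given for this promoter, which is inside the gene, and scored 16.3, 7.74, 8.08 and 9.18 in the 4 shHNRNPU libraries. A shLUC summit lay 307 bp away, so a nearby base was called in shLUC as well. The gained locus at IRX1 lay 47 bases after the start, scored 8.45, 4.59, 3.85 and 3.38, and had no shLUC summit within 4075 bp. The IRX1 bases hold 6 GC boxes, 2 of them overlapping, and the TSHZ3 bases hold 5. The lost locus at KCNN2, 52 bases before the start, scored 29.4 and 21.0 with shLUC, and the nearest shHNRNPU summit was 887 bp away. At LOC105370462, a stretch of 34.8% G or C with none of the 4 motifs, the shLUC scores were 7.18 and 6.82 and the nearest shHNRNPU summit lay 8345 bp away. The other promoters with gained loci were those of RASSF9 and LOC124900480, and the others with lost loci were those of LOC105372131, LOC105373153 and LOC105377992. Promoters on chromosome 8 were left out of this choice.

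Promoters in gene-poor windows were open less often than elsewhere. Of 1061 starts of protein-coding genes in these windows, 449 (42.3%) had a summit between 250 bases before and 50 after the start in at least 1 library, against 50.0% of 21138 starts elsewhere. Of 3029 starts of lncRNA genes in gene-poor windows 267 (8.81%) had one, against 23.5% of 9888 elsewhere. The 360 gene-poor promoters open in all 6 libraries had a median of 63.4% G or C, and 58.3% of them held a GC box. The 3374 gene-poor promoters with no summit had a median of 42.0%, and 10.9% held a GC box. The same direction was seen outside these windows, with a GC box in 74.6% of 9019 promoters open in all 6 libraries and in 27.8% of 18132 with none.

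The share of summits in gene-poor windows was lower with both HNRNPU hairpins. It was 14.0% and 14.8% with shHNRNPU #1, 15.3% and 13.6% with shHNRNPU #2, and 17.2% and 16.5% with shLUC. All 4 shHNRNPU libraries lay below both shLUC libraries. The mean was 14.4% ± 0.760 (SD, n = 4) against 16.9% ± 0.513 (SD, n = 2), a difference of -2.45 percentage points or a change of -14.5% of the shLUC share. With 4 libraries against 2 the two-sided exact permutation test has 15 assignments and cannot go below p = 0.133, which is the value found (p = 0.133, exact). The 95% Wilson interval, which covers counting error only, ran from 13.3% to 13.9% for the lowest library and from 16.9% to 17.5% for the highest. Taken alone, shHNRNPU #1 differed from shLUC by -2.47 points and shHNRNPU #2 by -2.43 points (exact permutation test over 6 assignments, p = 0.333 for each, the smallest possible).

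Lists of equal length gave the same order. Among the 52168 best summits of each library, the length of the shortest list, the gene-poor share was 13.7%, 14.0%, 14.8% and 13.6% with shHNRNPU and 16.0% and 15.4% with shLUC, a difference of -1.66 points between the means. Among the best 10000 it was 7.26%, 7.41%, 8.07% and 7.43% against 10.2% and 9.22%, a difference of -2.19 points. Among the best 5000 it was 5.12%, 5.56%, 6.30% and 5.32% against 8.12% and 7.50%, a change of -28.6% of the shLUC share. The groups did not overlap for any of these list lengths (p = 0.133 for each, exact permutation test). By ranks they overlapped only between rank 20001 and 40000, where repeat 2 of shLUC had 15.6% and 16.5% and the shHNRNPU libraries 15.2% to 16.7%.

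**Figure D1:**
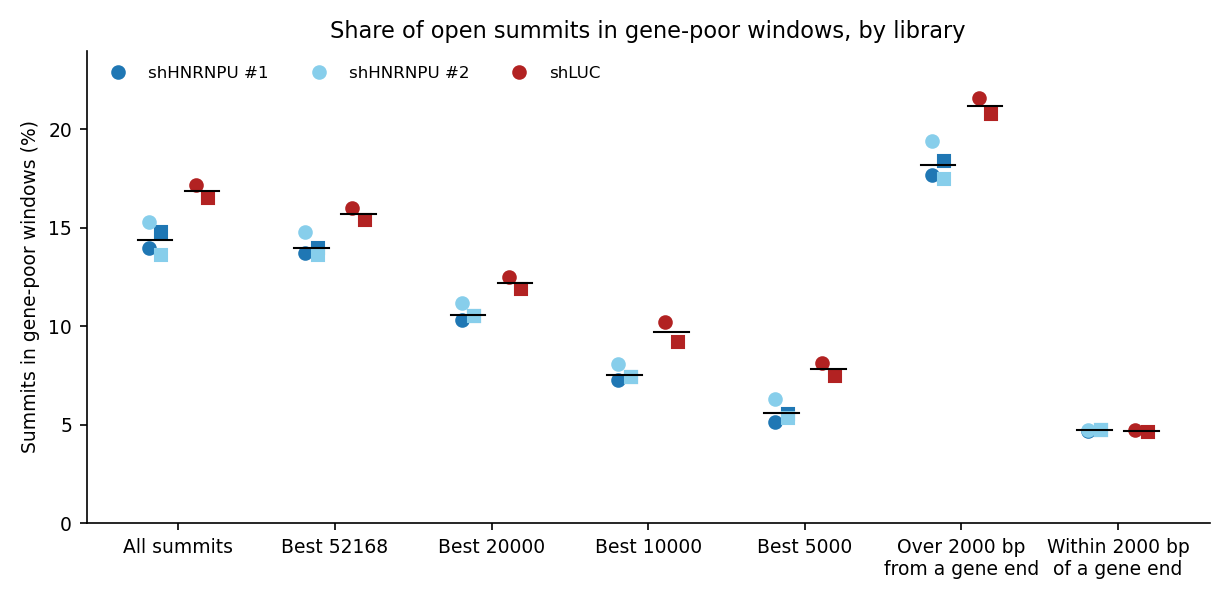
Percent of summits in gene-poor windows in each library (circles repeat 1, squares repeat 2, lines the group means) for all summits, for the best-scoring summits of equal lists, and for summits far from or near an end of a protein-coding gene. The shHNRNPU libraries lie below the shLUC libraries in every column but the last, where all 6 lie between 4.64% and 4.74%.

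The difference lay away from gene ends. Among summits over 2000 bp from every protein-coding gene end, the gene-poor share was 17.7%, 18.4%, 19.4% and 17.5% with shHNRNPU and 21.6% and 20.8% with shLUC, a difference of -2.96 points (p = 0.133, exact permutation test). Nearer to an end it was 4.70% to 4.74% with shHNRNPU and 4.74% and 4.64% with shLUC, with a difference of 0.0316 points (p = 0.533, exact permutation test). The difference between these effects was not tested. Gene-poor summits inside a protein-coding gene made up a mean of 6.68% of the shLUC lists and 5.82% of the shHNRNPU lists, a change of -12.8%. Those inside a lncRNA gene only made up 3.60% and 3.03%, a change of -15.8%, and those in no gene 6.44% and 5.42%, a change of -15.9%. In each of these classes all 4 shHNRNPU libraries lay below both shLUC libraries.

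The share of summits changed in steps with gene density. Summits with no protein-coding midpoint within 500 kb made up 3.92%, 4.29%, 4.59% and 3.69% of the shHNRNPU lists and 5.61% and 5.30% of the shLUC lists, a change of -24.4%. The change was -14.3% with 1 midpoint, -10.2% with 2 and -4.04% with 3 to 5. It was 2.51% with 6 to 10 midpoints, 8.80% with 11 to 20 and 12.7% with over 20. In each of the 7 classes the groups did not overlap. The shares of a list add to a whole, so lower shares in some classes entail higher ones in others.

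**Figure D2:**
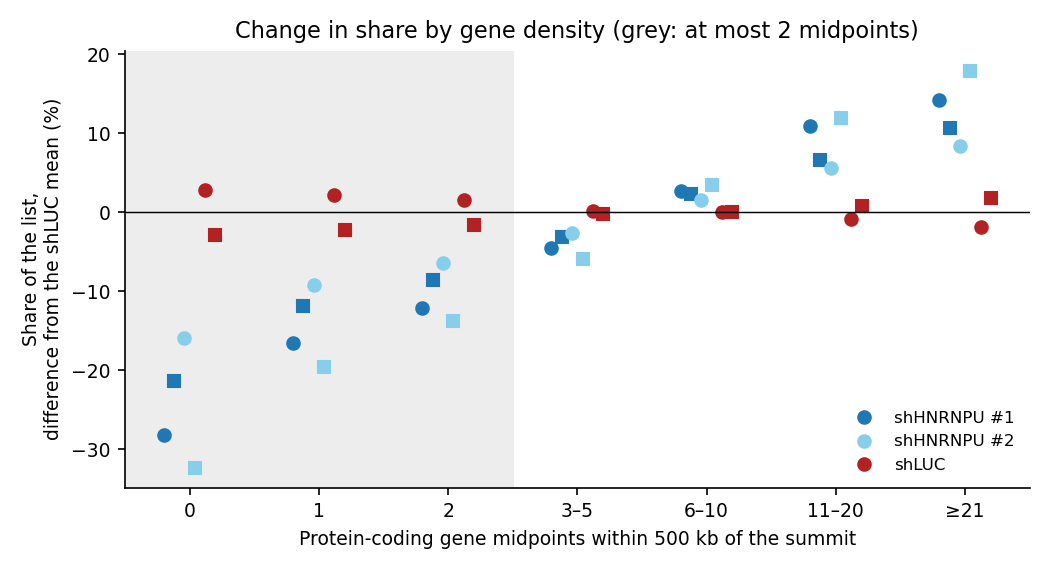
Share of the list in 7 classes of gene density, as the percent difference from the mean of the shLUC libraries (circles repeat 1, squares repeat 2). The shHNRNPU libraries lie below the shLUC libraries in the 4 classes with at most 5 midpoints and above them in the other classes.

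Around the limits of the rule the values moved gradually. Summits with exactly 2 midpoints and a gene within 50 kb, just inside the rule, changed by -9.79% and those with 3, just outside, by -5.77%. Summits with at most 2 midpoints whose nearest gene was 40 to 50 kb away changed by -21.5%, and those over 50 to 60 kb away by -18.2%. All summits with at most 2 midpoints and no gene within 50 kb, which the rule leaves out, made up 3.56% of the shLUC lists and 2.82% of the shHNRNPU lists, a change of -20.8%.

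The lower share was found on most chromosomes. In 19 of 24 chromosomes the gene-poor share of the summits of that chromosome lay in all 4 shHNRNPU libraries below that of each shLUC library, and in 0 it lay above. The groups overlapped on chromosomes 1, 15, 19, 22 and Y. On chromosome 9 the share was 15.8%, 17.1%, 17.7% and 15.6% with shHNRNPU and 21.4% and 20.1% with shLUC. On chromosome 18 it was 21.8%, 23.7%, 24.7% and 21.4% against 26.9% and 26.7%. On the gene-dense chromosome 19, with 202 gene-poor summits in all, the means were 1.50% and 1.39%. Cut into 1 Mb pieces of the genome with at least 10 summits on average, gene-poor summits made up 275 pieces. Of these, 70 (25.5%) had a lower share of the list in all 4 shHNRNPU libraries and 24 (8.73%) a higher one. Of all 2098 pieces, gene-poor or not, 12.6% were lower and 17.4% higher.

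Scores were lower in gene-poor windows than elsewhere in every library. The median percentile of gene-poor summits within their own list was 43.5, 43.3, 42.4 and 44.3 with shHNRNPU and 40.4 and 41.7 with shLUC, against 51.0 to 51.9 for other summits. The difference between the groups, 2.33 percentile points higher with shHNRNPU, depended on weak summits at the end of the lists. With lists of one size it was 0.695 and the groups overlapped, and for summits scoring 5 or more it turned to -1.04. The median score itself was 6.56, 6.31, 5.84 and 7.35 with shHNRNPU and 6.10 and 5.78 with shLUC, so the groups overlapped.

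Gene-poor loci were also sparser and less often shared. Gene-poor windows covered 763.776 Mb, 24.7% of the length between the outermost genes, and held 28.2 loci per Mb against 43.7 elsewhere. Elsewhere and other loci mean all that the rule leaves out. They include 4495 loci with at most 2 midpoints and no gene within 50 kb, and stretches without assembled sequence were not taken out of the length. A locus was present in 1 library only in 45.1% of gene-poor and 36.5% of other loci, and in all 6 in 14.0% (3015) and 22.2%. The overlap of a pair of libraries, as loci in both over loci in either, was 0.419 within shLUC, 0.424 to 0.460 within shHNRNPU and 0.380 to 0.396 between the groups. For other loci these values were 0.513, 0.516 to 0.535 and 0.492 to 0.496.

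The loci with the highest lowest percentile over all 6 libraries lay in repeats. By that rule 5 of the first 6 were on the short arm of chromosome 21, at or beside ribosomal RNA genes, RNA28SN1, RNA45SN1 (2 loci), RNA28SN3 and MIR10396A. These genes have near-identical copies, so the reads cannot be assigned to 1 copy with certainty. The short arm held 25 gene-poor loci and 0.180% of gene-poor summits. The sixth lay in FER, a tyrosine kinase gene, 958 bp from an end (chr5:108748855), with scores of 98.5, 112, 97.1 and 105 with shHNRNPU and 114 and 125 with shLUC. Both shLUC scores were above all 4 others, but scores are not normalized between libraries. Among the next loci outside that arm, chosen after their values were seen, were those at KBTBD8, ARRDC4, TXNL1 and BNC2, with scores between 63.7 and 111. Of these, the BNC2 locus (chr9:16810389) is the one far from a gene end, 60281 bp away, and scored 75.6, 82.1, 71.5 and 73.4 with shHNRNPU and 79.3 and 76.9 with shLUC. BNC2 encodes a zinc finger protein.

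Gene-poor loci were lost more often than other loci. Of 6242 gene-poor loci present in both shLUC libraries, 641 (10.3%) had no summit in any shHNRNPU library, against 1731 of 35542 other loci (4.87%) and 5.68% of all loci. The difference of 5.40 points was larger than for each of the other 14 choices of 2 libraries as the reference, which gave 0.116 to 2.45 points (exact permutation test over 15 assignments, two-sided p = 0.133, the smallest possible). The other loci include those with at most 2 midpoints and no gene within 50 kb, of which 159 of 1268 (12.5%) were lost. With these counted as gene-poor the difference in loci lost was 6.07 points. Of 3626 gene-poor loci present in all 4 shHNRNPU libraries, 142 (3.92%) were gained, against 942 of 26581 other loci (3.54%) and 3.59% of all loci. That difference, 0.372 points, lay within the range of the other 14 choices, from -0.122 to 2.75 (p = 0.667, exact permutation test). With each hairpin alone, 17.1% of gene-poor loci were lost with shHNRNPU #1 and 19.1% with shHNRNPU #2, against 9.21% and 10.7% of other loci. Gains for a hairpin alone required a summit in both of its libraries and in neither shLUC library. They made up 12.1% of gene-poor and 10.3% of other loci with shHNRNPU #1. With shHNRNPU #2 they made up 8.42% and 7.69%. These differences for each hairpin were not tested.

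The percent lost was lower where genes were denser. With no protein-coding midpoint within 500 kb 12.5% of loci were lost, then 10.5% with 1, 9.41% with 2, 6.67% with 3 to 5, 5.23% with 6 to 10, 3.17% with 11 to 20 and 2.66% with more. The percent gained lay between 3.10% and 4.10% in all 7 classes. Within gene-poor windows, 10.3% of loci inside a protein-coding gene were lost, 10.9% inside a lncRNA gene only and 9.99% in no gene. Near gene ends the percent was lower. Up to 2000 bp from a protein-coding gene end 13 of 614 gene-poor loci (2.12%) were lost and 19 of 482 (3.94%) gained, whereas farther away 628 of 5628 (11.2%) were lost, against 6.60% of other loci at that distance.

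**Figure D3:**
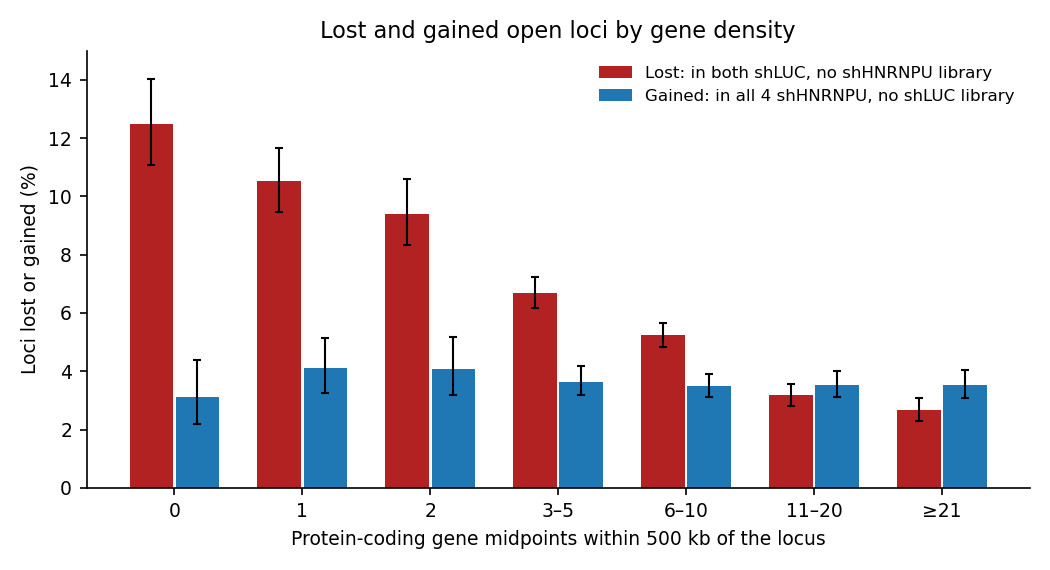
Percent of loci lost (of those in both shLUC libraries) and gained (of those in all 4 shHNRNPU libraries) in 7 classes of gene density. Lost loci go from 12.5% with no midpoint to 2.66% with over 20, and gained loci stay between 3.10% and 4.10%; bars on the columns are 95% Wilson intervals and cover counting error only.

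Lost loci were mostly weak, in gene-poor windows as elsewhere. The loci were split by the lowest percentile among the libraries that define the call. Up to percentile 25, 24.5% of gene-poor loci were lost against 17.0% of other loci, up to 50, 11.3% against 6.12%, up to 75, 4.47% against 1.94%, and above that 4 of 1272 (0.314%) against 0.127%. The gene-poor percent was thus the higher one in each class, in the top class on 4 lost gene-poor loci only. The classes are wide, so scores may still differ within them, which was not tested. The gained percent was 12.3% against 14.5%, 4.52% against 3.77%, 0.861% against 0.923%, and 0.276% against 0.304%. A locus counts as lost when no summit was called, so a peak just under the threshold of the caller is included, and the part of depth was not tested. Of the 641 lost loci, 74 (11.5%) had a shHNRNPU summit within 1000 bp, as had 43 of the 142 gained loci (30.3%) a shLUC summit, which leaves 567 and 99.

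**Figure D4:**
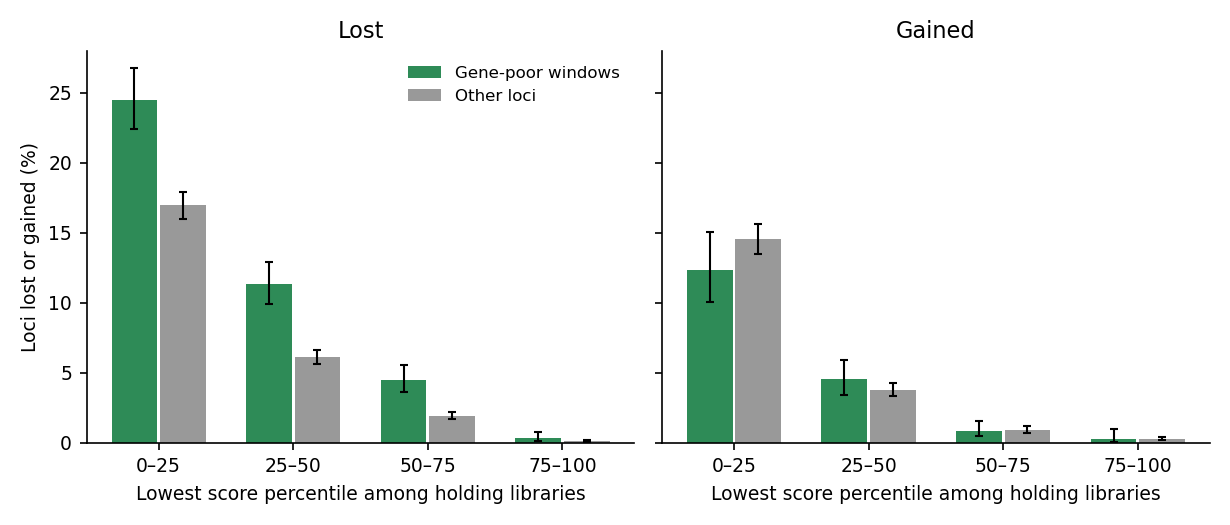
Percent of loci lost (left) and gained (right) in gene-poor windows and elsewhere, by the lowest percentile of score among the libraries that define the call, with 95% Wilson intervals that cover counting error only. Gene-poor loci are lost more often in each class, from 24.5% against 17.0% in the lowest to 0.314% (4 loci) against 0.127% in the top one.

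The 6 best-scored lost loci without a shHNRNPU summit within 1000 bp lay in or near 4 protein-coding and 2 lncRNA genes. The first was in RIMS1, a presynaptic scaffold gene, 157395 bp from an end (chr6:72245750), with shLUC scores of 22.5 and 20.4 and the nearest shHNRNPU summit 1398 bp away. In ASCC3, a helicase gene, the locus at chr6:100658648 scored 14.6 and 15.2 with shLUC, and the nearest shHNRNPU summit lay 153190 bp away. In KDM4C, a histone demethylase gene, the locus at chr9:6985173 scored 18.7 and 13.4. At SYT1, the calcium sensor of synaptic vesicles, the locus lay 391 bp outside the gene (chr12:78863591), scored 18.8 and 12.6, and had a shHNRNPU summit 1028 bp away. The other 2 of the 6 were in the lncRNA genes LOC105375103 and LOC107987108, with shLUC scores of 18.3 and 16.3, and of 15.9 and 12.4.

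The best-scored gained loci lay inside lncRNA and protein-coding genes, none within 2000 bp of a protein-coding gene end. The first was in LOC124902439 (chr10:64120794), 495666 bp from any protein-coding gene end, with scores of 15.3, 16.1, 16.6 and 20.9 in the shHNRNPU libraries and the nearest shLUC summit 3793 bp away. In TFPI, an inhibitor of coagulation, the locus at chr2:187519824 scored 16.6, 21.4, 21.2 and 12.1. In ULK4, a kinase gene, the locus at chr3:41278299 scored 15.3, 7.09, 12.3 and 10.1, and the nearest shLUC summit lay 42807 bp away. The other 3 of the 6 were in LOC124902188, CSMD1 and LOC124904193, with lowest scores of 13.6, 8.97 and 8.70.

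Each gene-poor locus was given a host, the gene that contains it or else the nearest one. The 21544 loci had 4977 hosts, of which 944 were protein-coding and 2774 lncRNA genes. Protein-coding hosts held 46.7% of the loci and lncRNA hosts 40.7%. The 488 hosts with at least 10 loci held 43.6% of all gene-poor loci, and 1526 hosts had a single one. The median distance to an end of a protein-coding gene was 173 kb for gene-poor loci and 17.5 kb for other loci.

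The 10 hosts with the most loci were genes of 966 to 2474 kb, and 8 of them are in the list of long neuronal adhesion and synapse genes that is also described as a group. NTM, an IgLON adhesion gene of 966 kb, had 77 loci, or 7.97 per 100 kb. NRXN3, a presynaptic neurexin, and PTPRD, a receptor phosphatase, had 68 each. RBFOX1, a splicing regulator, had 65, OPCML, another IgLON gene next to NTM, had 64, CNTNAP2, a neurexin-like adhesion gene, had 62, and DLG2, a synaptic scaffold, had 60. CSMD1, a membrane protein gene, had 59, PDE4D, a cAMP phosphodiesterase, had 56, and LRP1B, a receptor of the LDL receptor family, had 52, as many as TENM2 and TENM3. OPCML had 5.73 loci per 100 kb, and the 8 genes of the 10 other than NTM and OPCML had 2.63 to 4.00.

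The number of summits in these genes differed between the groups for some and not for others. CNTNAP2 had 28, 32, 30 and 21 gene-poor summits in the shHNRNPU libraries and 44 and 40 in the shLUC libraries. PTPRD had 21, 24, 21 and 13 against 28 and 38, and DLG2 18, 23, 20 and 18 against 31 and 26. In these 3 genes the counts of the groups were apart. RBFOX1 had 32, 35, 23 and 26 against 34 and 34, and OPCML 29, 25, 20 and 21 against 25 and 24, and there the groups overlapped.

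The hosts lowest with shHNRNPU relative to list length were neuronal guidance and adhesion genes. The 5 with the lowest difference, among hosts whose groups were apart, were CNTNAP2, PTPRD, CTNNA2, ROBO2 and ROBO1. CTNNA2, the neuronal alpha-catenin, had 11, 15, 12 and 7 summits with shHNRNPU and 21 and 25 with shLUC. ROBO2, a Slit receptor, had 13, 20, 21 and 12 against 31 and 26, and ROBO1, its neighbour on chromosome 3, had 9, 9, 7 and 9 against 22 and 17. The counts in shLUC were above all 4 others in each of the 5 genes. The sizes moved with the processing, in percent of the list. For summits scoring 5 or more CNTNAP2 went from -0.0206 to -0.0132, PTPRD from -0.0199 to -0.0109 and CTNNA2 from -0.0182 to -0.0093. With lists of one size PTPRD went to -0.0086 and DLG2 from -0.0122 to -0.0192, so DLG2 then lay below PTPRD.

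The 5 with the highest difference were NTM, JARID2, LRMDA, PTPRN2 and BCOR. JARID2, a partner of Polycomb complex PRC2, had 10, 10, 7 and 8 gene-poor summits with shHNRNPU and 4 and 5 with shLUC. BCOR, a corepressor of Polycomb complex PRC1, had 7, 7, 3 and 6 against 2 and 2. LRMDA had 13, 12, 15 and 14 against 11 and 9, and PTPRN2, a protein of secretory granules, had 16, 12, 12 and 13 against 11 and 9. NTM had 43, 37, 31 and 28 against 30 and 30, so its counts overlapped and its groups were apart only as a share of the list, and for summits scoring 5 or more its difference turned from 0.0109 to -0.0053 percent of the list. At that score the difference at JARID2 shrank from 0.0077 to 0.0008 percent of the list and that at BCOR from 0.0066 to 0.0031.

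**Figure D5:**
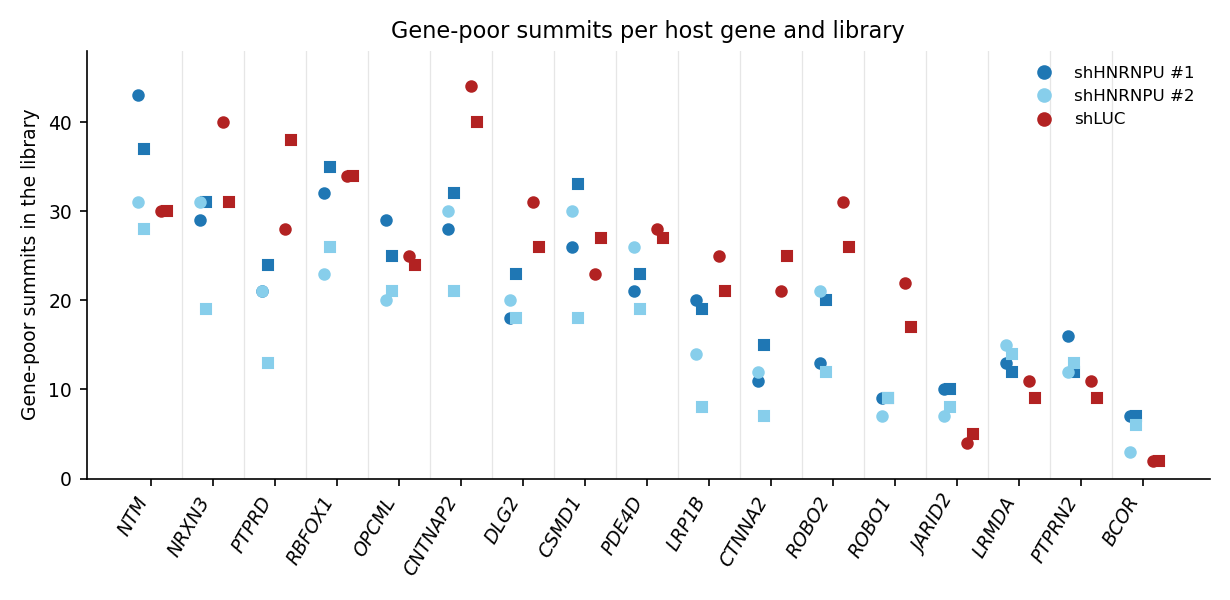
Gene-poor summits in each library (circles repeat 1, squares repeat 2) for the 10 hosts with the most loci and the hosts with the lowest and highest differences between the groups. In CNTNAP2 the shLUC libraries have 44 and 40 summits and the shHNRNPU libraries at most 32, while in JARID2 the shLUC libraries have 4 and 5 and the shHNRNPU libraries at least 7.

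Over all hosts, lower counts were more frequent than higher ones. Of 763 hosts with at least 3 gene-poor summits on average, 145 (19.0%) had a lower share of the list in all 4 shHNRNPU libraries and 57 (7.47%) a higher one. Of 5219 genes with as many summits of any kind, 10.1% were lower and 12.6% higher. Many counts are small and tie, and list length then decides the call. With lists of one size 68 of 635 hosts (10.7%) were lower and 24 (3.78%) higher, against 5.61% and 5.79% of 4264 genes. Lost loci were spread over 553 hosts, of which 16 had at least 3. Among them ASCC3, CNTNAP2, LSAMP and ROBO2 had 4 lost and 0 gained loci each. Gained loci had 137 hosts, with at most 2 in any host.

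Unbroken gene-poor runs with many summits, chosen after their values were seen, had lower counts in some cases and higher counts in others. The run with the most summits, chr11:130917526-133427525, holds NTM and OPCML and had 74, 68, 56 and 48 summits with shHNRNPU and 58 and 58 with shLUC. The run at MEF2C and TMEM161B (chr5:88051178-89995177) had 32, 37, 37 and 31 against 38 and 41. The run at MCTP2 (chr15:93137563-94907562) had 36, 42, 37 and 26 against 30 and 29, with 2 loci lost and 2 gained. Relative to list length the groups were apart at MCTP2, higher with shHNRNPU, and overlapped at the other runs named.

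Gene groups were described from lists of genes of related function, chosen with earlier results of these data known. The gene-poor hosts set beside the lists were not matched to them for the number of summits per gene or for gene density. Of 39 long neuronal adhesion and synapse genes 38 hosted gene-poor loci, 1293 in all. These made up 0.842%, 0.863%, 0.878% and 0.751% of the shHNRNPU lists and 1.07% and 1.06% of the shLUC lists, a change of -21.6%. The change was -14.5% for all gene-poor summits, -24.4% for summits with no protein-coding midpoint and -14.3% for those with 1. Whether this group differs from other loci at the same gene density was not tested. Of the 35 genes with at least 3 summits on average 19 (54.3%) were lower and 2 (5.71%) higher, against 19.0% and 7.47% of gene-poor hosts and 10.1% and 12.6% of all genes. These percents are for the full lists, and most of the 35 genes had well over 3 summits per library. With lists of one size 10.7% of gene-poor hosts were lower and 3.78% higher, and no such count is given for this group. Of the 401 loci in both shLUC libraries 51 (12.7%) were lost, and of the 200 in all 4 shHNRNPU libraries 5 (2.50%) were gained, against 10.3% and 3.92% of all gene-poor loci. The genes named above make up part of this list.

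Of 23 cadherins and non-clustered protocadherins, which join cells by calcium-dependent contacts, 20 hosted 243 gene-poor loci. Their share was 0.139%, 0.156%, 0.168% and 0.138% with shHNRNPU and 0.207% and 0.197% with shLUC, a change of -25.8%. It was -14.5% for all gene-poor summits and -24.4% for summits with no protein-coding midpoint. Of 14 genes with at least 3 summits on average 5 (35.7%) were lower and 0 higher, against 19.0% and 7.47% of gene-poor hosts. Of 69 loci in both shLUC libraries 11 (15.9%) were lost and of 40 in all 4 shHNRNPU libraries 1 (2.50%) was gained, against 10.3% and 3.92% of gene-poor loci. PCDH15 had 8, 15, 14 and 9 summits against 21 and 15, and CDH18 had 6, 7, 6 and 7 against 13 and 14. CDH12 had 9, 8, 10 and 5 against 12 and 9, where the groups overlapped as a share of the list.

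At developmental transcription factors the groups overlapped. Of 44 such genes 27 hosted 326 gene-poor loci, at 0.235%, 0.235%, 0.231% and 0.219% of the shHNRNPU lists and 0.241% and 0.228% of the shLUC lists. The means differed by a change of -2.03%. Of 17 genes with at least 3 summits on average 3 (17.6%) were lower and 1 (5.88%) higher, near the 19.0% and 7.47% of gene-poor hosts. Of 88 loci in both shLUC libraries 8 (9.09%) were lost and of 57 in all 4 shHNRNPU libraries 4 (7.02%) were gained, against 10.3% and 3.92% of gene-poor loci. ZFHX3 had the most loci, 43, with 25, 15, 16 and 14 summits against 16 and 21, SOX5 had 17, 17, 19 and 11 against 18 and 13, and FOXP2 had 5, 8, 7 and 3 against 8 and 12. Whether this list differs from the neuronal and cadherin lists was not tested.

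The remaining lists hosted few loci. Of 20 signalling ligands and antagonists 6 hosted 29 loci, and the groups overlapped. Only 9 of these loci were in both shLUC libraries and 4 in all 4 shHNRNPU libraries. None was lost or gained, against 10.3% and 3.92% of gene-poor loci, which is too few loci to read as a result. In a list of 8 noncoding RNA genes of pluripotent cells, of which the gene table lists TUNAR as protein-coding, 2 hosted 26 loci. Their share was 0.0163% of the shHNRNPU lists and 0.0235% of the shLUC lists (means), with the groups apart. None was lost or gained, but only 8 of these loci were in both shLUC libraries and 4 in all 4 shHNRNPU libraries. SOX2-OT, which overlaps SOX2, hosted 21 loci and had 9, 10, 7 and 7 summits with shHNRNPU and 10 and 13 with shLUC. LINC00458 hosted 5 loci and had 2, 0, 1 and 2 against 3 and 3.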

How the data were processed

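The authors deposited 1 list of summits per library, in which a summit is a single base with a peak name and a score. The score in the deposited lists is the -log10 of the q-value that the authors' peak caller gave the peak within that library, as its values show, starting at 1.30. The submitters' processing notes name cutadapt, Bowtie2, SAMtools, MACS2, deepTools and hg38, without versions. Peaks were called in each library separately, scores were not normalized between libraries, and depth is unknown. The article linked to the series describes other experiments and guided only the style.

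Genes came from the RefSeq table of GRCh38.p14 (59679 genes on chromosomes 1 to 22, X and Y, 20037 protein-coding), promoters from RefSeq. The table gives no exons, so a locus is only inside or outside a gene. To form loci, the summit of highest percentile absorbed those within 250 bp, then the best of those left, and so on. Library values were compared by exact permutation over the 15 choices of 2 controls, two-sided by doubling the smaller tail. Hosts were compared as percent of the list where the mean was at least 3 summits. Named were the 10 hosts with most loci, the 6 best loci in all libraries, the 6 best lost and 6 best gained loci without a lacking library's summit within 1000 bp, and the 5 lowest and 5 highest hosts whose groups were apart. The members, lists and tests were chosen with earlier results of these data known, and the 1 Mb pieces, runs, values at the limits of the rule and host counts with lists of one size were added after seeing the data. Some named genes and runs are not reported here. The code was tested on simulated data. Analyses used Python 3.11.15, numpy 2.4.6, pandas 2.3.3, scipy 1.17.1 and matplotlib 3.10.9. Alternatives are given with the limits.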

Additional observations from a re-analysis of the deposited data

How the results depend on the processing

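The gene-poor share stayed lower with shHNRNPU under the other settings tried, by -3.19 to -0.0563 points with all libraries and by -2.81 to -2.09 with each library left out in turn. The smallest difference, -0.0563, came from counting midpoints of genes of all biotypes. The short arm of chromosome 21 and the joint setting of distance and list size were tried after seeing the data, and gave -2.45 and -2.02. The share with equal lists gave -2.00 to -1.33 points without 1 library, the share far from gene ends gave -3.38 to -2.55, and the percentile difference 1.66 to 3.01. That percentile difference turned to -1.04 at a score of at least 5, and the difference at NTM to -0.0053. The 641 lost loci became 399 at a score of at least 5, and 749 to 3131 without 1 library, most without a shLUC library, when fewer libraries must agree. The 142 gained loci became 86 with at most 1 midpoint and 212 to 390 without 1 library. Hosts with fewer summits numbered 63 at a score of at least 5, 68 with lists of one size and 169 to 255 without 1 library, and hosts with more 24, 24 and 61 to 135. Of these settings only lists of one size have a share over all genes, 5.61% lower and 5.79% higher. Without 1 library the call is easier to meet, so those counts cannot be set against the 145 and 57 of the main setting. The excess of lost loci lay between 4.77 and 6.07 points with all libraries and between 5.83 and 12.1 without 1. Of 34 recomputed values of 17 named hosts, 12 moved by more than 1 SD without a change of sign.

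No pairing of the libraries by repeat number was seen at gene-poor loci. Over 21544 gene-poor loci the difference of repeat 1 and repeat 2 correlated between groups at -0.0273, 0.00226 and 0.00418. These values rest on summits called or absent and cannot exclude a culture or batch shared by repeats of one number. Permuting within repeats as a replicate block left the differences in share at -2.45, -1.66 and -2.96 points, in percentile at 2.33, and in lost and gained loci at 5.40 and 0.372 points, with p = 0.222 (exact permutation test), the smallest possible, for all but gained loci (p = 0.889). Depth is unknown, so an absent summit is one that was not called.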
